A study of Homo sapiens with 4 samples.

Results

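The 35 genes described here encode the enzymes and transporters of glycolysis, of the pentose phosphate pathway and of lactate and pyruvate handling. They were taken by gene symbol from the expression tables of 4 RNA-seq libraries, which list 19974 genes, and all 35 were present. The libraries came from HCT116, an established human colorectal carcinoma cell line grown in culture. In the control group, si-NC, the cells were transfected with a scramble siRNA, and in the other group, si-152, with an siRNA against the long non-coding RNA LINC00152; siRNA was used at 100 nM and RNA was taken after 36 h. Each group had 2 biological replicates, numbered 1 and 2. All libraries thus share 1 cell line, 1 dose and 1 time, and each is a transient transfection rather than a stable line. LINC00152 itself was not analysed here, so the knockdown is taken from the labels. The comparison asked which genes differed after knockdown of LINC00152. The levels also show which of the listed isoenzymes of a step had the highest transcript level in HCT116 cells. Protein and enzyme activity were not measured in these libraries.

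Glycolysis splits glucose into pyruvate in the cytosol and yields ATP and NADH. The pentose phosphate pathway branches off at glucose 6-phosphate: its oxidative arm makes NADPH, and its non-oxidative arm exchanges sugars between ribose 5-phosphate and the glycolytic intermediates. Pyruvate is either reduced to lactate by lactate dehydrogenase and exported by monocarboxylate transporters, or oxidised in mitochondria by the pyruvate dehydrogenase complex, and tumour cells are known for a high lactate output even where oxygen is present. Most steps can be carried out by isoenzymes from different genes, which differ in tissue distribution and regulation.

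Values are in FPKM, fragments counted on a gene relative to its transcript length and to all mapped fragments, so that levels of different genes can be set side by side within a library. The FPKM summed over all genes ran from 424755 to 534311 in the 4 libraries, lowest in si-152 replicate 1, and the 35 genes made up 1.51 to 1.67% of it. The numbers of reads were not known, so no counting error is given. Of 9 markers of colon epithelium, 7 were at 1 FPKM or more in every library, with the list summing to 3185 to 3711 FPKM under si-NC and 2540 to 3145 FPKM under si-152, while LGALS4 and VIL1, both of differentiated epithelium, were listed at 0 in 4 and 3 of the 4 libraries. The sum of the keratins KRT8, KRT18 and KRT19 was 2759 and 3276 FPKM under si-NC and 2162 and 2701 FPKM under si-152, while the other 4 markers that passed the filter summed to 425.4 and 435.4 FPKM under si-NC and 378.6 and 443.7 FPKM under si-152, with overlap. The part of the keratin difference in the values below was not tested. None of 4 leukocyte markers and none of 3 endothelial markers reached that level, and of 4 fibroblast markers COL1A1 alone did, the list summing to 7.03 to 7.98 FPKM under si-NC and 7.11 to 7.76 FPKM under si-152. In a bulk library, fewer cells of a kind and less RNA per cell cannot be told apart.

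All 35 genes passed the minimum of 1 FPKM in at least 2 libraries, and the lowest single value was 0.685 FPKM, for SLC16A1 in si-152 replicate 1. By their mean over the 4 libraries, 10 genes lay above 100 FPKM and 8 lay under 10 FPKM. GAPDH, the glyceraldehyde 3-phosphate dehydrogenase that makes NADH, was the highest at 2610.0 and 2879 FPKM under si-NC and 2609.6 and 2823 FPKM under si-152, rank 23 of 11222 genes by the si-NC mean. Together with enolase 1 and pyruvate kinase it held 58.3 to 61.5% of the FPKM of all 35 genes. Not every step of lower glycolysis was as high: PGK1, at 89.5 to 98.3 FPKM, and PGAM1, at 62.2 to 75.8 FPKM, lay in the range of the upstream genes GPI, at 76.1 to 96.9 FPKM, and PFKP, at 63.9 to 78.9 FPKM. Reads of several of these genes may be shared with processed pseudogenes, of which the GENCODE annotation names 62 for GAPDH, 13 for PGAM1, 6 each for LDHA and RPE, 5 for PKM, and 4 each for TPI1 and ENO1, so their levels carry an uncertainty that the replicates do not show.

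**Figure D1:**
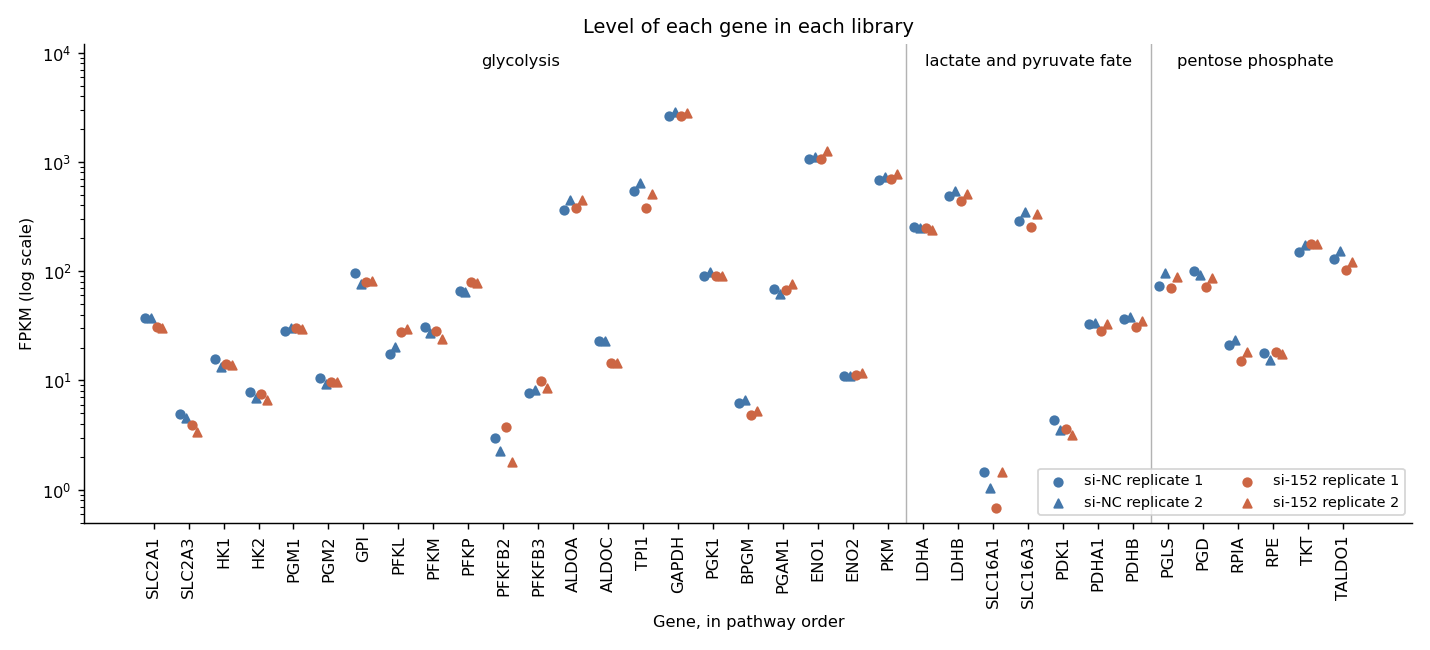
FPKM (log axis) of the 35 genes in pathway order, with 1 point for each library: blue for si-NC, red for si-152, circles for replicate 1 and triangles for replicate 2. GAPDH sits highest at 2610 to 2879 FPKM and SLC16A1 lowest at 0.685 to 1.47 FPKM, and for most genes the blue and red points lie close together.

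Promoter sequence is shown for 4 genes: PFKL and ALDOC, which had the largest differences upward and downward, and LDHA and LDHB, the pair of lactate dehydrogenase genes whose levels are compared further on. Each line is the 250 bases before the transcription start, 5′ to 3′ on the strand of the gene (RefSeq, GRCh38.p14). Capitals mark ACGTG, the core of the hypoxia response element, on either strand, read as CACGT on the strand opposite to it; the E-box CACGTG, bound by MYC and related factors, holds the core on both strands and counts as 2 matches.
PFKL, chr21:44299803-44300052, plus strand: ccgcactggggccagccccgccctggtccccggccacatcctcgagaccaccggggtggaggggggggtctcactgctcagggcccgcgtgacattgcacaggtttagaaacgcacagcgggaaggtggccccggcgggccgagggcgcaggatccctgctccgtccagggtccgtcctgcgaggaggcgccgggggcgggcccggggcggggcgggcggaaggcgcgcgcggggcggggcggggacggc
ALDOC, chr17:28576896-28577145, minus strand: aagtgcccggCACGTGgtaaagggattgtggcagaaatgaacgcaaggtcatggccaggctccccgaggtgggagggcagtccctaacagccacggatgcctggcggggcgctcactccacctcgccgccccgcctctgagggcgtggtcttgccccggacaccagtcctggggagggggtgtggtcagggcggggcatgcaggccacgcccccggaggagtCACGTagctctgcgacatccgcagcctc
LDHA, chr11:18394313-18394562, plus strand: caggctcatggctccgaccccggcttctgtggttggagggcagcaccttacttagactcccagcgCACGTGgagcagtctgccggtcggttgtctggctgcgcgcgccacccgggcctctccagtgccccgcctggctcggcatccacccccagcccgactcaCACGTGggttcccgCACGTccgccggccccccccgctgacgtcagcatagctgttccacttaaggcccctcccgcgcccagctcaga
LDHB, chr12:21657843-21658092, minus strand: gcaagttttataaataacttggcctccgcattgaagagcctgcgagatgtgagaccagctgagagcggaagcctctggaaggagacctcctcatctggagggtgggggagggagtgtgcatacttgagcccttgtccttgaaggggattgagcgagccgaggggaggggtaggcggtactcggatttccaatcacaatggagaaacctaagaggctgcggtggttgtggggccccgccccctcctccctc
The LDHA window held 5 matches to the core, among them 2 E-boxes, and the ALDOC window held 3, among them 1 E-box. The PFKL and LDHB windows held none of these letters, nor did a second RefSeq window of LDHA. Windows were found for 32 of the 35 genes, 60 in all, since some genes have several starts; SLC16A1, SLC2A3 and PFKFB2 had none. The core was present in 22 of the 60 windows, or 36.7%, and in 18.5% of all 35116 windows of the same length. The E-box was present in 8 of the 60, or 13.3%, and in 6.35% of all windows. Counted by gene, 19 of 32 had at least 1 window with the core (59.4%, against 21.7% of all gene symbols with a window) and 8 of 32 had one with the E-box (25.0%, against 7.73%). The members had 60 windows for 32 genes, and all symbols had 35116 windows for 27305. Counted by gene, the members thus had more windows each in which to find a match. The background held every symbol with a window, whether or not it was expressed in these libraries. These are counts of letters and not binding sites.

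Of the 35 genes, 1 was higher in si-152 and 2 were lower at limma's unadjusted p below 0.05: PFKL was higher, and ALDOC and RPIA were lower. The threshold is the study's own, and over all 11222 genes tested 1.89% were called higher and 2.5% lower, so the members' counts were near that background. With a fold in FPKM + 1 above 1.5 as a further condition, 0 members were higher, against 0.597% of all genes. ALDOC alone was lower, against 1.06%. PFKL missed this condition narrowly, at a fold of 1.496, and its miss depended on the added 1. With a pseudocount of 0.1 its log2 fold change was 0.603, which is above that fold. After Benjamini-Hochberg adjustment over all genes, none of the 35 passed at 0.05 and their smallest adjusted p from limma was 0.678; 2 genes of all, or 0.0178%, passed, neither of them a member. The changes were small: 24 of the 35 log2 fold changes lay within 0.2 of 0.

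The 35 genes leaned to lower values after knockdown. The median of their log2 fold changes was -0.069, beside 0.019 over all genes, with 23 below 0 and 12 above. Of all 11222 genes tested, 5137 lay below 0 and 6085 above. In both same-numbered pairs 19 genes, or 54.3%, were lower, against 27.3% of all genes, and 9 genes, or 25.7%, were higher, against 35.6%. The 2 si-152 values lay below both si-NC values for 11 genes, or 31.4%, against 13.9% of all genes, and above them for 5, or 14.3%, against 16.5%. The direction of the members' median depended on the scaling: with each library scaled to a common sum it was 0.030, beside 0.11 over all genes, and 12 members were then lower in both pairs and 15 higher, beside 16.5% and 52.7% of all genes. The counts without overlap were then 7 members below and 8 above, beside 7.51% and 18.1% of all genes. With size factors they were 14 below and 5 above, beside 15.7% and 16.0%. With quantile normalization they were 14 below and 8 above, beside 16.6% and 17.4%. The scaling to a common sum also moved the split of calls over all genes from 212 higher and 280 lower (43.1% higher) to 225 higher and 133 lower (62.8% higher). Under each of the 4 scalings tried the members' median lay below that of all genes. All genes were not matched to the members for level. The FPKM summed over all genes was 463016 and 534311 under si-NC and 424755 and 507094 under si-152. The part of expression level in the members' lean was not tested.

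**Figure D2:**
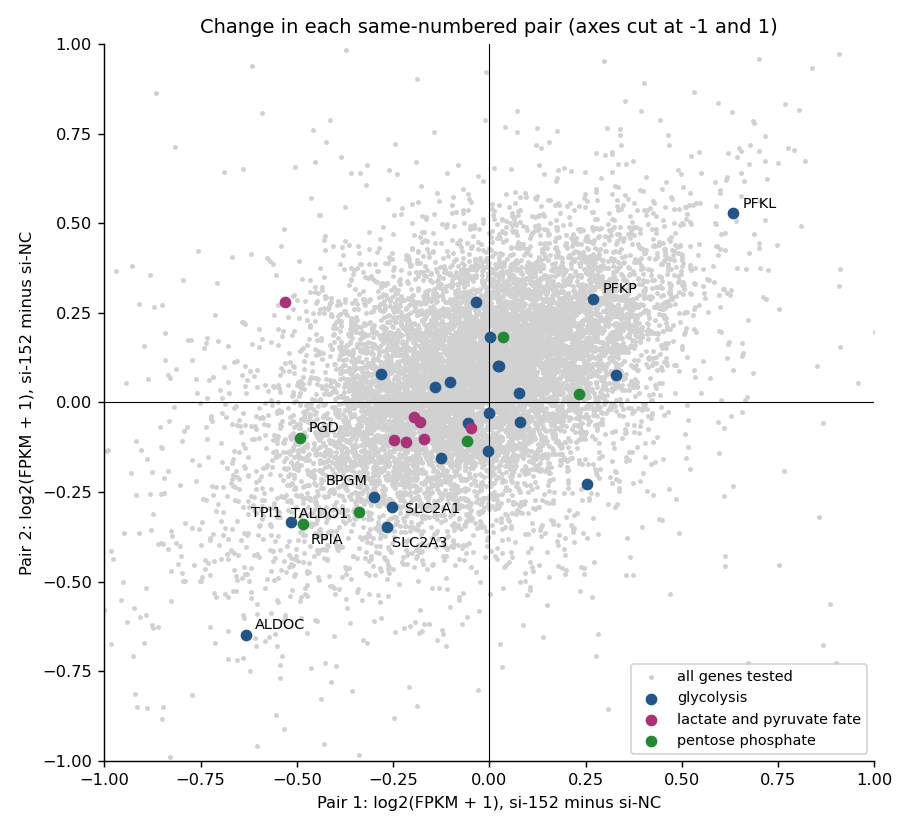
Log2 difference in FPKM + 1, si-152 minus si-NC, in pair 1 (x axis) and in pair 2 (y axis), for all genes tested in grey and for the 35 genes in colour by pathway arm; the axes end at -1 and 1. Genes whose groups did not overlap and whose log2 fold change exceeded 0.25 in size are named: PFKL and PFKP lie upper right, and ALDOC, TPI1 and RPIA are among those lower left.

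Glucose enters through SLC2A1 (GLUT1), the widespread basal transporter, and SLC2A3 (GLUT3), a high-affinity transporter. SLC2A1 was at 37.2 and 37.1 FPKM under si-NC and 31.1 and 30.1 FPKM under si-152. SLC2A3 was at 4.89 and 4.53 FPKM under si-NC and 3.9 and 3.35 FPKM under si-152. For both genes the si-152 values lay below both si-NC values, but neither passed limma's unadjusted threshold (log2 fold changes -0.27 (SE 0.16) and -0.31 (SE 0.19), limma's unadjusted p = 0.12 and 0.146, adjusted p = 1.00 for each). In pairs 1 and 2 the log2 differences were -0.25 and -0.29 for SLC2A1 and -0.27 and -0.35 for SLC2A3. SLC2A1 held 88.4 to 90.0% of the summed FPKM of the pair in the 4 libraries, and that share did not separate the groups (89.4% ± 0.80 in si-152 and 88.7% ± 0.51 in si-NC, SD, n = 2 each). The pair's sum was 42.1 and 41.6 FPKM under si-NC and 34.96 and 33.4 FPKM under si-152.

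Hexokinases trap glucose as glucose 6-phosphate, and HK1 and HK2 are forms that can bind mitochondria. HK1 was at 15.6 and 13.3 FPKM under si-NC and 14.1 and 13.7 FPKM under si-152. HK2 was at 7.87 and 6.93 FPKM under si-NC and 7.53 and 6.61 FPKM under si-152. The groups overlapped for both genes, and HK1 was 1.87 to 2.08 times as high as HK2 in every library. A further family member outside the 35 genes and chosen after its values were seen, HKDC1, was at 20.9 and 15.2 FPKM under si-NC and 18.7 and 14.7 FPKM under si-152, which was 1.07 to 1.34 times the level of HK1 in the same library. Phosphoglucomutases link glucose 6-phosphate to glycogen and nucleotide sugars. PGM1 was at 28.3 and 30.4 FPKM under si-NC and 29.9 and 29.2 FPKM under si-152, and PGM2, which acts mainly on phosphopentoses, was at 10.5 and 9.32 FPKM under si-NC and 9.75 and 9.73 FPKM under si-152. PGM1 held 72.8 to 76.5% of their sum, and neither gene separated the groups. GPI, which isomerises glucose 6-phosphate to fructose 6-phosphate, was at 96.9 and 76.1 FPKM under si-NC and 79.5 and 80.4 FPKM under si-152, with opposite signs in the 2 pairs (log2 -0.28 and 0.08).

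Phosphofructokinase commits the sugar to glycolysis, and its tetramers can be built from liver-type (PFKL), muscle-type (PFKM) and platelet-type (PFKP) subunits. PFKL (chr21:44300051-44327376, plus strand, GRCh38) was at 17.5 and 20.4 FPKM under si-NC and 27.7 and 29.8 FPKM under si-152. Both si-152 values lay above both si-NC values, 28.8 ± 1.4 FPKM in si-152 against 18.9 ± 2.0 FPKM in si-NC (SD, n = 2 each). The log2 fold change was 0.58 (SE 0.17), with limma's unadjusted p = 0.0068 and adjusted p = 0.760, and the log2 difference was 0.63 in pair 1 and 0.53 in pair 2. Without si-NC replicate 1, the lowest of the 4 values, the log2 fold change was 0.48 and the unadjusted p was 0.0591, so this call rested on that library. PFKP was at 65.3 and 63.9 FPKM under si-NC and 78.9 and 78.3 FPKM under si-152, also without overlap, with a log2 fold change of 0.28 (SE 0.16) that missed the threshold (limma's unadjusted p = 0.12, adjusted p = 1.00). PFKM was at 30.9 and 27 FPKM under si-NC and 28.2 and 24.1 FPKM under si-152, with overlapping groups and differences of -0.13 and -0.16 on the log2 scale in the 2 pairs.

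The platelet-type subunit was the main one by transcript level in every library, at 57.4 to 59.2% of the family's FPKM. The liver-type share was 15.4 and 18.3% in si-NC and 20.6 and 22.5% in si-152, and the muscle-type share was 27.2 and 24.3% in si-NC and 20.9 and 18.3% in si-152. Neither share overlapped between the groups, and the differences of the means were 4.70 and -6.13 percentage points. The platelet-type share, 57.4 and 57.4% in si-NC and 58.5 and 59.2% in si-152, did not overlap either. The exact permutation test (two-sided, n = 2 each) gave p = 0.333 for each of these shares. That is the smallest p that 2 against 2 libraries allow, so the threshold cannot be reached. Of the other families, only the aldolase shares also lay without overlap. PFKM was 1.76 and 1.33 times as high as PFKL in si-NC, and 1.02 and 0.811 times as high in si-152. The family's sum was 113.7 and 111.2 FPKM under si-NC and 134.9 and 132.2 FPKM under si-152. It was higher in si-152 in both pairs under each of the 4 scalings, by 0.25 and 0.25 on the log2 scale as deposited. A share within a library is not changed by multiplying that library by a constant.

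**Figure D3:**
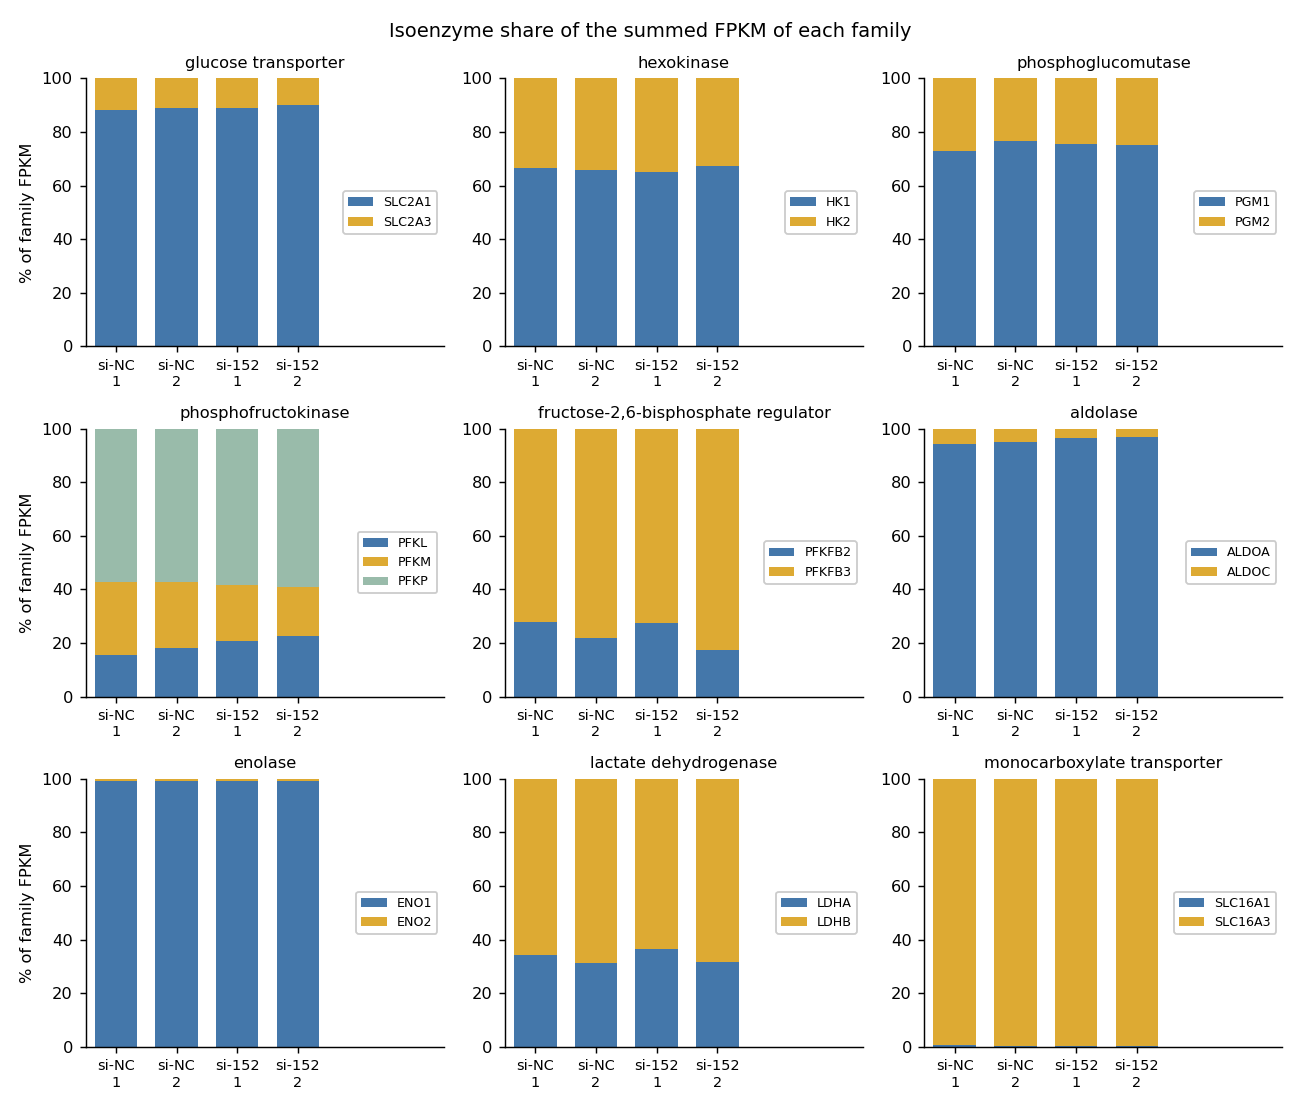
Share of each isoenzyme (%, bar segments) in the summed FPKM of its family, in the 2 si-NC and the 2 si-152 libraries. The PFKL segment grows from 15.4 and 18.3% to 20.6 and 22.5% and the ALDOC segment shrinks from 5.93 and 4.94% to 3.62 and 3.08%, while one gene holds over 98% of the enolase and monocarboxylate transporter families in every library.

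The bifunctional enzymes PFKFB2 and PFKFB3 make and remove fructose 2,6-bisphosphate, the activator of phosphofructokinase, and PFKFB3 is mostly a kinase. PFKFB3 was at 7.67 and 8.09 FPKM under si-NC and 9.89 and 8.58 FPKM under si-152, without overlap but with a log2 fold change of only 0.20 (SE 0.18) and limma's unadjusted p = 0.296 (adjusted p = 1.00). PFKFB2 was at 2.95 and 2.28 FPKM under si-NC and 3.72 and 1.8 FPKM under si-152, higher in pair 1 and lower in pair 2. PFKFB3 held 72.2 to 82.7% of the pair's FPKM. That share leaves out PFKFB4, no member and named after its values were seen. PFKFB4 was at 4.18 and 4.54 FPKM under si-NC and 4.53 and 3.88 FPKM under si-152, above PFKFB2 in every library.

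Aldolase splits fructose 1,6-bisphosphate. ALDOC, the form known from brain (chr17:28573115-28577264, minus strand, GRCh38), was at 22.8 and 23 FPKM under si-NC and 14.4 and 14.3 FPKM under si-152. The replicates lay close together and the groups lay far apart, 14.4 ± 0.015 FPKM in si-152 against 22.9 ± 0.16 FPKM in si-NC (SD, n = 2 each). The log2 fold change was -0.64 (SE 0.16), a 1.56-fold lower FPKM + 1, with limma's unadjusted p = 0.00314 and adjusted p = 0.678, and -0.63 and -0.65 in the 2 pairs. ALDOA, the muscle-type aldolase found in most cells, was at 362 and 444 FPKM under si-NC and 382 and 452 FPKM under si-152, with overlapping groups. ALDOA was the bulk of the family at 94.1 to 96.9%. The ALDOC share was 5.93 and 4.94% in si-NC and 3.62 and 3.08% in si-152 (exact permutation test, two-sided, p = 0.333, the smallest possible with n = 2 each), and the family's sum overlapped between the groups, at 384.9 and 466.5 FPKM under si-NC and 396.6 and 466.3 FPKM under si-152.

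TPI1, triose phosphate isomerase, was at 538 and 647 FPKM under si-NC and 376 and 513 FPKM under si-152. The groups did not overlap, but the spread within each was wide (SD 77.5 and 97.3 FPKM), and the log2 fold change of -0.43 (SE 0.26) did not pass (limma's unadjusted p = 0.131, adjusted p = 1.00), although replicate 2 was the higher in both groups and TPI1 was lower in both pairs (log2 -0.52 and -0.33). GAPDH differed by -0.00025 and -0.028 on the log2 scale in the 2 pairs. BPGM, which makes 2,3-bisphosphoglycerate, was at 6.2 and 6.57 FPKM under si-NC and 4.86 and 5.3 FPKM under si-152, without overlap, with log2 differences of -0.30 and -0.27 in the 2 pairs and limma's unadjusted p = 0.164 (adjusted p = 1.00). PGK1, the first ATP-yielding kinase, lay at 89.5 to 98.3 FPKM and PGAM1, phosphoglycerate mutase, at 62.2 to 75.8 FPKM, with log2 fold changes of -0.069 and 0.12. Enolase was almost wholly ENO1, at 1053 and 1103 FPKM under si-NC and 1055 and 1251 FPKM under si-152. ENO2, the neuronal form, was at 10.9 and 10.9 FPKM under si-NC and 11.1 and 11.8 FPKM under si-152, or 0.932 to 1.04% of the pair's FPKM. The muscle form ENO3, no member and singled out after its values were seen, was at 9.21 to 11.2 FPKM, 0.844 to 0.954 times the level of ENO2. PKM, pyruvate kinase, was at 679.6 to 773.8 FPKM with overlapping groups; gene-level values do not separate its M1 and M2 splice forms.

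**Figure D4:**
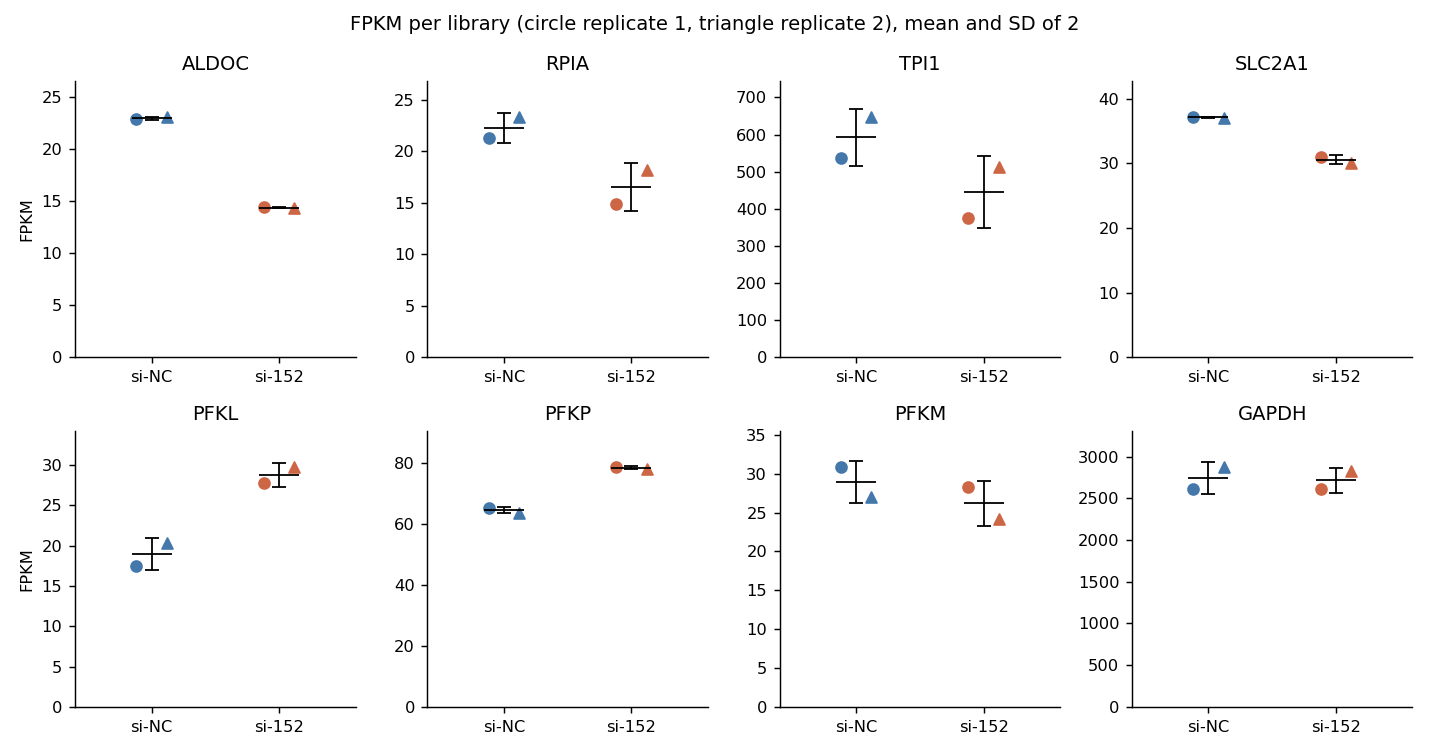
FPKM (y axis, from 0) in each library for 8 of the genes, with circles for replicate 1, triangles for replicate 2, and the mean with its SD (n = 2) in black. The si-152 points of ALDOC, RPIA, TPI1 and SLC2A1 lie below both si-NC points, those of PFKL and PFKP lie above, and those of PFKM and GAPDH overlap with si-NC.

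Lactate dehydrogenase is a tetramer of A and B subunits; the A form favours making lactate and the B form is typical of heart. LDHB was the higher in every library, at 489 and 547 FPKM under si-NC and 434 and 509.6 FPKM under si-152. LDHA was at 256 and 248 FPKM under si-NC and 248 and 236 FPKM under si-152. LDHB was thus 1.75 to 2.20 times as high as LDHA, and held 63.7 to 68.8% of the pair's FPKM, with no separation of the groups (66.0% ± 3.3 in si-152, 67.2% ± 2.2 in si-NC, SD, n = 2 each). Lactate leaves through SLC16A3 (MCT4), the exporter of glycolytic cells, or SLC16A1 (MCT1). SLC16A3 was at 289 and 346 FPKM under si-NC and 255 and 333 FPKM under si-152. SLC16A1 was at 1.44 and 1.03 FPKM under si-NC and 0.685 and 1.47 FPKM under si-152, so SLC16A3 held 99.5 to 99.7% of the pair's FPKM. BSG, the chaperone that both transporters need (not among the 35 genes, chosen after its values were seen), was at 639.3 to 714.9 FPKM.

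At the entry to mitochondria, PDHA1 and PDHB, the subunits of pyruvate dehydrogenase E1, were at 28.3 to 33.8 and 30.7 to 37.9 FPKM. PDK1, which inhibits the complex, was at 3.16 to 4.31 FPKM. Its relative PDK2, no member and named after its values were seen, was 2.57 to 3.59 times as high as PDK1. All 7 genes of lactate and pyruvate handling had a log2 fold change below 0, from -0.18 to -0.060, none passed the threshold, and the sign of LDHA turned with libraries scaled to a common sum, and those of LDHA, LDHB and SLC16A3 with quantile normalization.

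The pentose phosphate genes lay between 14.9 and 177.4 FPKM. RPIA (chr2:88691644-88750935, plus strand, GRCh38), which isomerises ribulose 5-phosphate to ribose 5-phosphate, was at 21.3 and 23.3 FPKM under si-NC and 14.9 and 18.2 FPKM under si-152. The groups did not overlap, 16.6 ± 2.3 FPKM in si-152 against 22.3 ± 1.5 FPKM in si-NC (SD, n = 2 each), and the log2 fold change was -0.41 (SE 0.18) with limma's unadjusted p = 0.0433 and adjusted p = 1.00. The call did not hold without si-NC replicate 1 (unadjusted p = 0.0573), without si-NC replicate 2 (0.168) or without si-152 replicate 1 (0.28), where the log2 fold change was -0.28, nor with libraries scaled to a common sum (0.157). RPE, the epimerase that acts on the same ribulose 5-phosphate, was at 15.4 to 18.3 FPKM with overlapping groups. In the oxidative arm, PGD, which makes NADPH and ribulose 5-phosphate, was at 100.4 and 92.9 FPKM under si-NC and 71.1 and 86.7 FPKM under si-152, and the lactonase PGLS was at 70.8 to 95.8 FPKM.

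The enzymes that pass sugars back to glycolysis went opposite ways in value. TALDO1, transaldolase, was at 129 and 151.7 FPKM under si-NC and 102 and 122 FPKM under si-152, and TKT, transketolase, at 151 and 173 FPKM under si-NC and 177 and 176 FPKM under si-152. Neither gene's groups overlapped, and neither passed the threshold: the log2 fold changes were -0.32 (SE 0.19) for TALDO1 (limma's unadjusted p = 0.124, adjusted p = 1.00) and 0.13 (SE 0.19) for TKT (unadjusted p = 0.509, adjusted p = 1.00). In pairs 1 and 2 TALDO1 differed by -0.34 and -0.31 on the log2 scale, and PGD by -0.49 and -0.099. Over the 6 pentose phosphate genes the median log2 fold change was -0.19, with 4 lower and 2 higher in both pairs, and over the 22 genes of glycolysis it was -0.019, with 9 lower and 7 higher in both pairs. Of all genes tested, 27.3% were lower and 35.6% were higher in both pairs.

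Of 71 further genes of these and adjoining pathways, all were listed and 41 passed the level filter; 28 were below 1 FPKM in every library. At limma's unadjusted p below 0.05, 0 of the 41 were higher and 1 was lower. Over all genes tested 1.89% were called higher and 2.5% lower, so these counts were near that background. The lower gene was GPD2, the mitochondrial enzyme of the glycerol phosphate shuttle, at 11.4 and 6.88 FPKM under si-NC and 6.55 and 4.79 FPKM under si-152, where the groups did not overlap (log2 fold change -0.58, limma's unadjusted p = 0.044, adjusted p = 1.00).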

How the data were processed

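RNA of 4 HCT116 cultures (2 si-NC, 2 si-152) was sequenced. The submitters' processing notes name GRCh38, Trimmomatic, TopHat, HISAT2, HTSeq and DESeq without roles or versions; strandedness and gene models were not given in the sources used here. The deposited values carry no unit name and were read as FPKM from their range. The authors compared counts with DESeq; those counts were not used here. Reads per library are not known: of 712 genes above 0 and below 0.2 FPKM in every library, at most 25 shared about the same ratio to si-NC replicate 1 in any other library. Of 19974 genes, the 11222 that reached 1 FPKM in 2 or more of the 4 libraries were tested on log2(FPKM + 1), which understates changes of low genes. The test was limma 3.58.1 (R 4.3.3, mean-variance trend, group as the only term), with Benjamini-Hochberg adjustment. It was also run on simulated data with 200 genes shifted by 1.2 on the log2 scale, more than any member changed. At limma's unadjusted p below 0.05 and a fold above 1.5, 98.5% of them were recovered, with 88 false calls. Smaller shifts were not simulated. Called means an unadjusted p below 0.05. The p-values from limma rest on the spread between these libraries, with each gene's spread drawn towards that of genes of similar level. Shares were compared by exact permutation (scipy 1.17.1). In the tables, 28 symbols had been turned into dates, none of a member. Promoters were taken from RefSeq (GRCh38.p14), positions and pseudogenes from GENCODE (GRCh38).

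Every member was accounted for: each isoenzyme and each member with an unadjusted p below 0.05, with or without the replicate block, is given in all 4 libraries, and the others by range. The members and lists were chosen with earlier results of these data known. Alternatives were other scalings, pseudocount, filters, no trend, the replicate block and leaving out each library; quantile normalization was added after seeing the data.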

Additional observations from a re-analysis of the deposited data

How the results depend on the processing

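The direction of ALDOC, PFKL and RPIA, the called genes, held under every alternative run. It also held for the uncalled members PFKP, PFKM, PFKFB3, SLC2A1, SLC2A3, TPI1, BPGM, PGAM1, ENO2, PDK1, PDHA1, PDHB, PGD, RPE, TKT and TALDO1. The members called, 1 higher and 2 lower as reported, came to 1 lower with libraries scaled to a common sum and 1 lower with no mean-variance trend, RPIA losing its call in both; leaving out each library in turn gave 0 to 1 higher and 1 to 2 lower. A leave-out leaves 1 library in a group, assumed to vary like the other group. The members' median log2 fold change turned to 0.030 with the sum scaling and ran from -0.093 to -0.025 with a library left out. Uncalled members turned sign under the sum scaling (HK1 0.046, HK2 0.032, GAPDH 0.086, PGK1 0.030, LDHA 0.040, PGLS 0.016, PGM2 0.070), quantile normalization (GAPDH 0.16, LDHA 0.037, LDHB 0.014, SLC16A3 0.017, PFKFB2 -0.032), a pseudocount of 0.1 (PFKFB2 -0.0016), size factors (PFKFB2 -0.00059, PGM1 -0.0081) and leaving out a library, where their ranges were HK1 -0.16 to 0.060, HK2 -0.14 to 0.025, GPI -0.27 to 0.071, ALDOA -0.093 to 0.20, GAPDH -0.085 to 0.056, ENO1 -0.031 to 0.21, PKM -0.019 to 0.14, SLC16A1 -0.40 to 0.15, SLC16A3 -0.31 to 0.075, PGLS -0.27 to 0.10, PFKFB2 -0.36 to 0.39, PGM1 -0.039 to 0.063, PGM2 -0.10 to 0.057. The causes were not tested.

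The labels number the replicates 1 and 2 in each group, and across 11222 genes the difference between replicates 1 and 2 in si-NC correlated with that in si-152 at 0.52; 2 pairs do not show that the numbers pair the samples. With the replicate block, 2 members were called higher (PFKL and PFKP) and 8 lower (ALDOC, BPGM, PGD, RPIA, SLC2A1, SLC2A3, TALDO1 and TPI1), 5.71% and 22.9% of the 35, beside 8.74% and 8.13% of all genes; the unadjusted p of TPI1 was then 0.0077, and ALDOC reached an adjusted p of 0.0412 from limma. The unknown number of reads limits what can be said of the lowest genes, such as SLC16A1 and PFKFB2.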
